A study of Mus musculus with 40 samples.

Results

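The depot difference between brown and white fat was examined in mice that had spent 24 h at 4 °C, in 5 libraries of interscapular brown adipose tissue (BAT) and 5 libraries of inguinal white adipose tissue (iWAT), 10 of the 40 libraries of the series, over every gene of the count table. All groups were adult Wild-type C57BL/6 mice on a standard diet; neither sex nor exact age is given in the sources used here. The cold BAT group (24 h at 4 °C) was set against the cold iWAT group (24 h at 4 °C), and the same depot difference was taken from 5 thermoneutral BAT and 5 thermoneutral iWAT libraries of mice kept at 30 °C. The libraries came from whole tissue and a kit that does not keep strand, so the reads of a gene and of an overlapping or antisense gene cannot be told apart. In whole tissue, fewer cells of a type and less RNA per cell cannot be told apart either. The labels do not say that libraries with the same number came from 1 mouse, nor how many mice stand behind a library, so p-values measure the spread between these samples.

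BAT burns lipid to make heat: noradrenaline from sympathetic nerves acts on β-adrenergic receptors of brown adipocytes, cyclic AMP rises, fatty acids are released, and uncoupling protein 1 (Ucp1) lets protons back across the inner mitochondrial membrane without ATP synthesis. Inguinal fat is a white depot that stores triglyceride and secretes hormones such as leptin, but cold recruits brown-like (beige) adipocytes in it. Brown adipocytes of the interscapular depot and adipocytes of the inguinal depot arise from different precursors and keep different positional (Hox) codes.

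The 10 cold libraries held 50272736 to 67565765 counts in BAT and 47505182 to 56787649 in iWAT. Mitochondrially encoded genes took 22.1% ± 1.85 of the counts in BAT and 8.98% ± 2.35 in iWAT (SD, n = 5 each). Libraries of the same depot were more alike than libraries of different depots: Spearman correlations over genes were 0.973 to 0.990 within BAT and 0.941 to 0.980 within iWAT, against 0.843 to 0.931 between depots. Some libraries stood apart. Skeletal muscle markers (13 genes, 11 of them not called between the depots) summed to 41.4 to 4127 CPM (counts scaled to a common library size) in BAT and 22.7 to 2731 CPM in iWAT, and were over 1000 CPM in BAT replicates 1, 3 and 5 and in iWAT replicates 1 and 5. B-lymphocyte markers (9 genes, 6 tested) summed to 5.08 to 17.5 CPM in BAT and 17.7 to 605 CPM in iWAT, highest in iWAT replicates 4 and 5. Collagen-rich fibroblast markers were highest in iWAT replicate 3, at 6505 CPM.

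Of 15754 genes tested, 10105 (64.1%) differed between the cold depots at an adjusted p under 0.05 (edgeR quasi-likelihood test, Benjamini-Hochberg), 4745 higher in BAT (30.1%) and 5360 lower (34.0%). A difference over 2-fold was called for 2038 genes higher (12.9%) and 3328 lower (21.1%), and a difference over 8-fold for 298 higher (1.89%) and 758 lower (4.81%). All 5 BAT libraries lay above all 5 iWAT libraries for 24.7% of the genes tested and below them for 23.7%. The 8-fold lower count was 1181 without BAT replicate 2, the BAT library with the most macrophage marker RNA (369 CPM against 65.3 to 108 CPM in the other BAT libraries). The median difference over all genes was -0.08 on the log2 scale, BAT over iWAT, as in every difference below. That centre depends on the scaling: 47.0% of the calls were higher in BAT with the scaling used, 38.1% with upper-quartile scaling (median -0.22) and 17.3% with library totals alone (median -0.69), where 2020 genes were higher and 9662 lower. Directions are therefore relative to the bulk of genes, and a list whose median changes sign with library totals is named as such. Leaving out the 5 libraries over 1000 CPM of muscle markers kept 2 BAT and 3 iWAT libraries and 5792 calls, 3292 higher and 2500 lower.

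The genes furthest above iWAT were low or near 0 in the white depot. Lgr6, a receptor for R-spondins, had 260, 246, 320, 361 and 417 CPM in the BAT libraries and 0.475, 0.108, 0.146, 0.95 and 1.16 CPM in the iWAT libraries (log2 difference 9.14 ± 0.65 SE, adjusted p = 1.82e-06). Bmp8b, a BMP-family ligand made by brown adipocytes, had 24.8 to 40.2 CPM in BAT and 0 to 0.222 CPM in iWAT (9.10 ± 0.62). Zic1, a zinc finger transcription factor used as a marker of the interscapular lineage, had 12.6, 12.9, 12.9, 10.4 and 13.6 CPM in BAT and 0.0475, 0.0155, 0, 0 and 0.111 CPM in iWAT (8.40 ± 0.61, adjusted p = 1.88e-06). In all 3 genes the lowest BAT library lay far above the highest iWAT library, and a lack of overlap was required for naming them. Kng2, a kininogen (the precursor of bradykinin), had 144 to 198 CPM in BAT and 0.0919 to 1.16 CPM in iWAT (8.35 ± 0.57), and the long noncoding RNA Lncbate10 had 66.4 to 155 CPM in BAT and 0 to 0.919 CPM in iWAT (8.36 ± 0.76). Fam131c had 20.3 to 28.2 CPM in BAT and 0 to 0.253 CPM in iWAT (8.28 ± 0.57).

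The same set held an enzyme of purine nucleotide metabolism, Gmpr, with 2365, 1819, 2204, 2690 and 3925 CPM in BAT and 3.75, 6.03, 3.77, 3.13 and 37.5 CPM in iWAT (7.91 ± 0.92, adjusted p = 3.95e-05). It also held Tacr2, the neurokinin A receptor (7.80 ± 0.85), the copine Cpne5 (7.52 ± 0.61), Arhgdig (7.28 ± 0.71), the membrane carbonic anhydrase Car14 (7.25 ± 0.77) and the kinase Sgk2 (6.85 ± 0.71). Among the iWAT libraries, replicate 5 was the highest for 11 of these 12 genes, at 0.361% to 2.68% of the BAT mean. The 12 genes were named for the largest differences without overlap, so a low share in iWAT follows from that rule. Over the 298 genes more than 8-fold higher in BAT, iWAT replicate 5 was the highest iWAT library for 144 (48.3%).

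**Figure D1:**
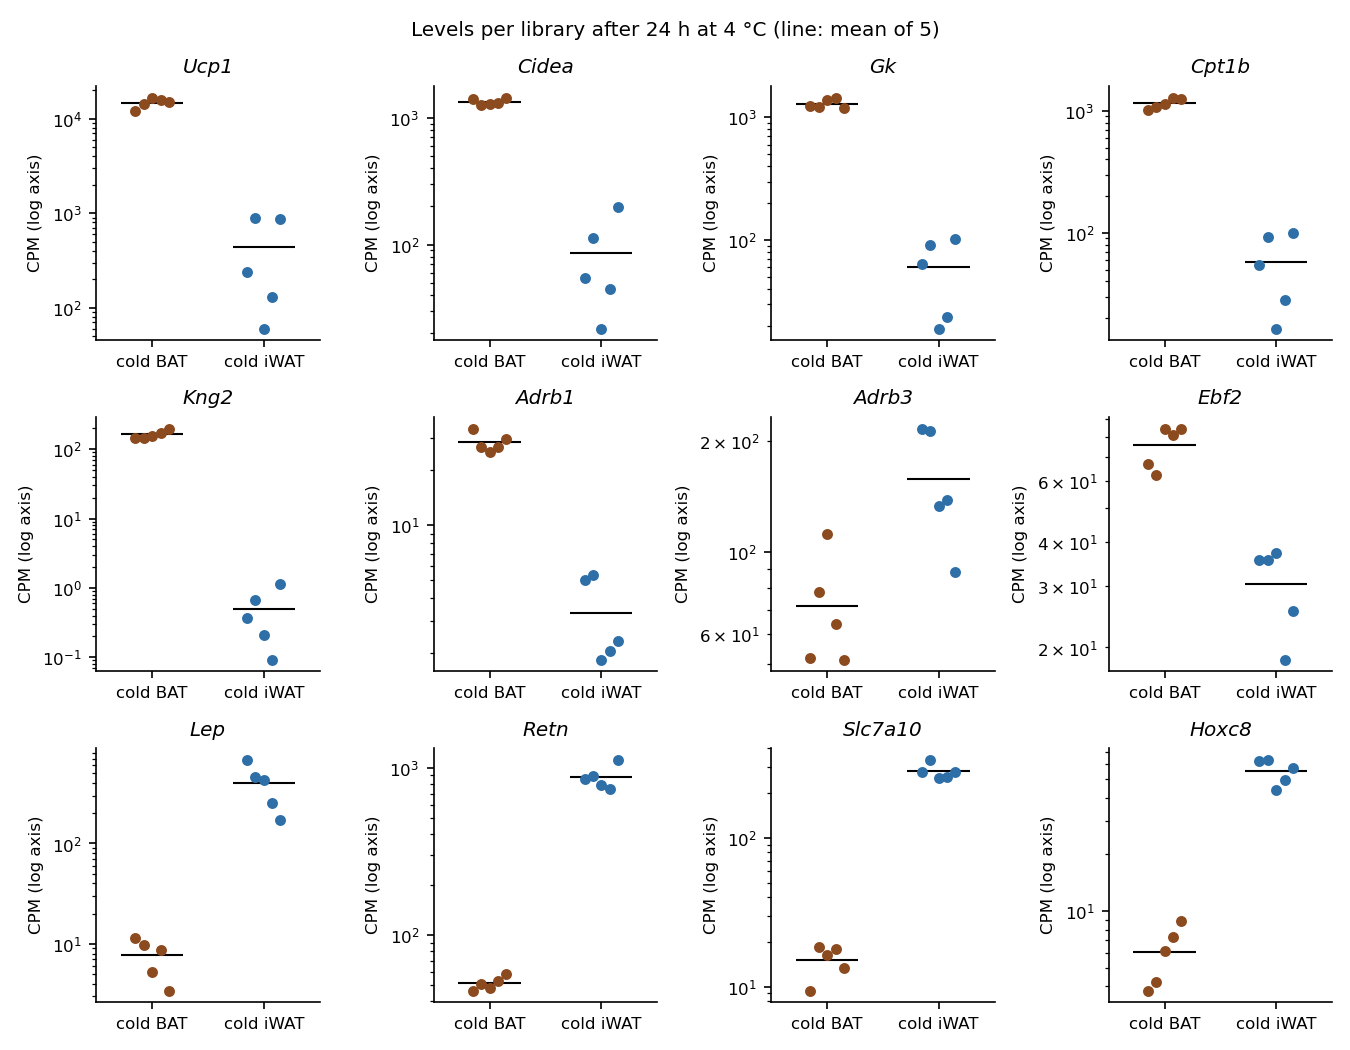
Level of 12 genes in each cold library, in CPM on a log axis; each point is a library, BAT left of iWAT, and the line is the group mean. Ucp1 lay between 12010 and 16742 in BAT and between 59.8 and 885 in iWAT, Kng2 was under 1.2 in every iWAT library, and Lep, Retn, Slc7a10 and Hoxc8 ran the other way.

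Promoter sequences are shown for 3 genes of the BAT-high set, as examples of the window searched for motifs: Ucp1 as the effector, Dio2 as a gene with a cyclic AMP response element in this window, and Fam131c as 1 of the most BAT-selective genes with an element bound by oestrogen-related receptors in this window. Each is 250 bases before to 50 after the RefSeq gene start (RefSeq, GRCm38.p6), 5′ to 3′ on the gene's strand. Ucp1 is chr8:83290098-83290397 (+ strand), Dio2 chr12:90738989-90739288 (- strand) and Fam131c chr4:141367942-141368241 (+ strand). Capitals mark the nuclear receptor core AGGTCA 14 bases before the Ucp1 start, the cyclic AMP element TGACGTCA 95 bases before the Dio2 start, and, 242 bases before the Fam131c start, the element TCAAGGTCA read on the opposite strand.
Ucp1: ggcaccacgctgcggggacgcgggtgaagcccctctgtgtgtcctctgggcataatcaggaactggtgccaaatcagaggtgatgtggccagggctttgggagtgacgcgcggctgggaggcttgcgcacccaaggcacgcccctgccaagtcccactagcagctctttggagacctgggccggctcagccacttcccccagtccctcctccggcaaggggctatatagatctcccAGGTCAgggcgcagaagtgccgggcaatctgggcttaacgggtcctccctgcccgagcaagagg
Dio2: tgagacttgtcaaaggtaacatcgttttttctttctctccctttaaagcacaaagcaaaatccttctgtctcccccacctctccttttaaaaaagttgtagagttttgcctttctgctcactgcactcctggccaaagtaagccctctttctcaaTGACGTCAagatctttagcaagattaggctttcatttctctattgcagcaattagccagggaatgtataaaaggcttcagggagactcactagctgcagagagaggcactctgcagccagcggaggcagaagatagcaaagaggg
Fam131c: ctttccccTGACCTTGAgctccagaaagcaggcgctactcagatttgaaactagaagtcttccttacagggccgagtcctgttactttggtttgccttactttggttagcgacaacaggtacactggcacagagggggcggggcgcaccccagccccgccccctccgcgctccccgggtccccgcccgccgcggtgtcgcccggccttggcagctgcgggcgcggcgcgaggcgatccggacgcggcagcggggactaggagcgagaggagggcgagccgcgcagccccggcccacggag

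These 3 motifs were searched on both strands, and every TCAAGGTCA also counts as an AGGTCA. The core AGGTCA was in 46 of the 207 promoters available for genes over 8-fold higher in BAT (22.2%), in 71 of 527 for genes over 8-fold lower (13.5%), in 12.4% of the 11451 promoters of tested genes and in 16.0% of all 27025 promoters. TCAAGGTCA was in 3 of the 207 (1.45%) and 0 of the 527, against 0.407% of all promoters and 0.271% of those of tested genes. TGACGTCA was in 2 of the 207 (0.966%) and 5 of the 527 (0.949%), against 1.88% of all promoters and 2.97% of those of tested genes. A match describes the letters in the window, and no match says nothing about binding elsewhere.

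The thermogenic programme stayed far apart in the cold. Of its 28 genes, 26 were higher in BAT and 1 was lower, against 30.1% and 34.0% over all genes, with a median log2 difference of 3.88; 22 of them exceeded 8-fold. The same shares over all genes apply to each count of list members in the main cold comparison below. Ucp1 had 12010, 14359, 16742, 15698 and 15190 CPM in BAT and 241, 885, 59.8, 129 and 859 CPM in iWAT (5.09 ± 0.75, adjusted p = 1.97e-04), or 9046 ± 1090 and 266 ± 247 CPM per kilobase of exon (SD, n = 5 each). BAT libraries varied little and did not overlap the iWAT libraries, which spread more than 10-fold among themselves. Cidea, a lipid droplet protein of brown adipocytes, averaged 1342 ± 79.7 CPM in BAT and 86.7 ± 71.2 CPM in iWAT (SD, n = 5 each; 3.95 ± 0.54 SE, adjusted p = 1.23e-04). Elovl3, a fatty acid elongase induced in brown fat by cold, averaged 1243 ± 482 CPM in BAT and 34.7 ± 36.7 CPM in iWAT (5.16 ± 0.75 SE). Dio2, which activates thyroid hormone within the cell, averaged 1146 ± 298 CPM in BAT and 78.2 ± 54.4 CPM in iWAT (3.87 ± 0.52 SE).

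Other members followed the same order. Slc27a2, a fatty acid transporter and acyl-CoA synthetase, had 304 to 517 CPM in BAT and 0.679 to 10.8 CPM in iWAT (6.60 ± 0.79), and Fabp3, a fatty acid carrier protein also found in muscle, had 2101 to 2854 CPM in BAT and 1.2 to 79.7 CPM in iWAT (6.66 ± 1.19). Acot11, an acyl-CoA thioesterase, had 326 to 982 CPM in BAT and 5.35 to 30.7 CPM in iWAT (5.50 ± 0.57). Letmd1, a mitochondrial protein needed for brown fat thermogenesis, had 690 to 916 CPM in BAT and 40.4 to 84.1 CPM in iWAT (3.82 ± 0.23). Ppargc1a, the coactivator that drives mitochondrial biogenesis, averaged 276 ± 77.9 CPM in BAT and 21.6 ± 7.95 CPM in iWAT (3.68 ± 0.30 SE). The member that was lower in BAT was the β3-adrenergic receptor Adrb3, and the member not called was Ckmt2, the muscle-type mitochondrial creatine kinase (3.49 ± 1.55, adjusted p = 0.07), which had 0.0529 CPM in BAT replicate 4 and 38.9 CPM in BAT replicate 5, the libraries with the least and the most muscle marker RNA of the depot. Without the 5 libraries over 1000 CPM of muscle markers the list still had 26 higher and 1 lower.

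The iWAT libraries differed from each other in how much of this programme they held. Over the 26 thermogenic genes called higher in BAT, the median level was 4.42%, 8.44%, 2.00%, 4.25% and 10.4% of the BAT mean in iWAT replicates 1 to 5. Replicate 5 was the highest iWAT library for 21 of the 26 genes, replicate 2 for 3 and replicate 1 for 2, while replicate 3 was the lowest for 17 and replicate 4 for 8. The median coefficient of variation of these genes was 15.1% over the BAT libraries and 60.8% over the iWAT libraries, larger in iWAT for 24 of 26. Over all tested genes it was 15.6% in BAT and 20.1% in iWAT. Summed brown adipocyte markers were 15782 to 22103 CPM in BAT and 199 to 1471 CPM in iWAT, again highest in iWAT replicates 5 and 2.

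**Figure D2:**
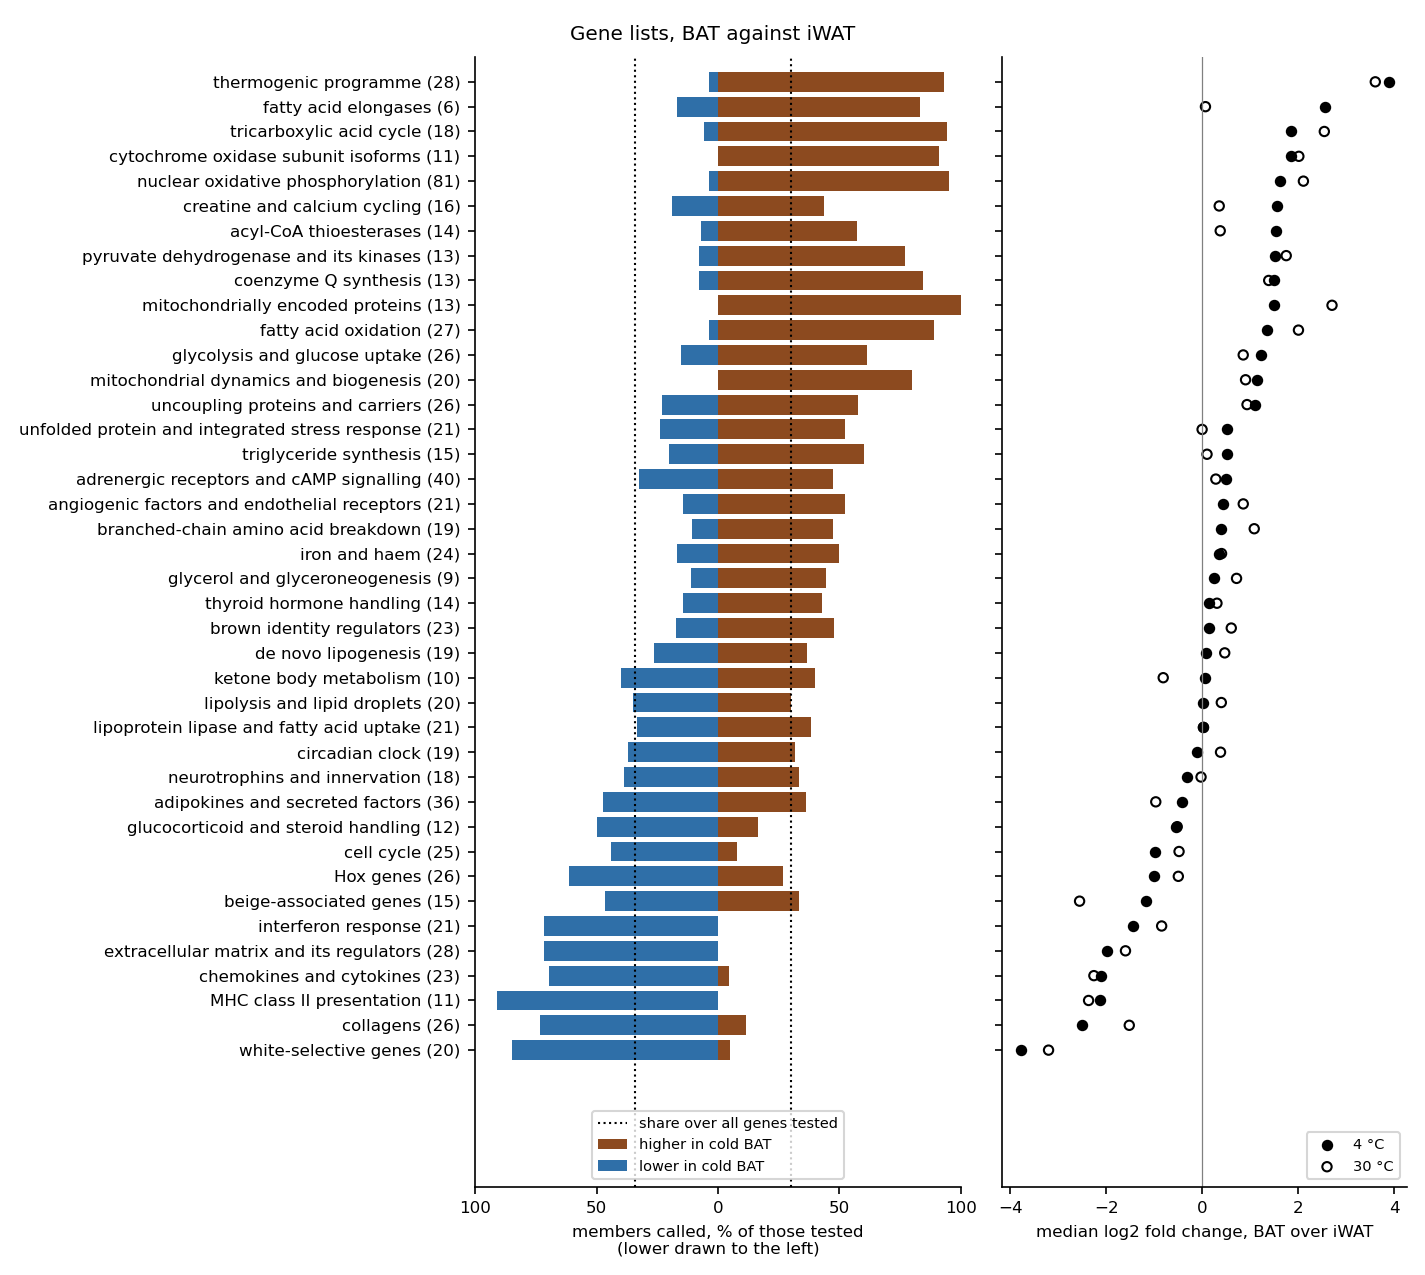
Left, percent of the tested members of each gene list called higher (to the right) or lower (to the left) in cold BAT than in cold iWAT, with dotted lines at the share over all tested genes (30.1% and 34.0%); right, the list's median log2 difference at 4 °C (filled) and 30 °C (open). The thermogenic, oxidative phosphorylation, tricarboxylic acid cycle and fatty acid oxidation lists lie to the right, with medians of 1.34 to 3.88, and collagens, matrix, white-selective and immune lists to the left.

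Transcription factors that set brown identity did not move as a block. Of 23 tested regulators, 11 were higher and 4 lower in BAT, with a median of 0.15, which was -0.48 with library totals alone. Prdm16, a coregulator of the brown and beige programmes, averaged 38.8 ± 8.64 CPM in BAT and 15.02 ± 2.61 CPM in iWAT (1.37 ± 0.17 SE, adjusted p = 5.82e-05). Ebf2, an early factor of brown precursors, had 62.1 to 84.6 CPM in BAT and 18.4 to 37.2 CPM in iWAT (1.32 ± 0.19). These 2 factors therefore differed by far less than the genes named above. The oestrogen-related receptors, which drive mitochondrial genes, were all higher: Esrra by 2.17 ± 0.15, Esrrb by 5.16 ± 0.40 and Esrrg by 4.22 ± 0.47. Ppara, the fatty acid sensing receptor, was higher by 3.03 ± 0.32 and Cebpb by 2.37 ± 0.21, while Cebpa, the related adipocyte factor, was lower by 1.22 (log2 difference -1.22 ± 0.17, adjusted p = 1.34e-04). Lhx8, often used as a brown marker, had 1.75 to 3.23 CPM in BAT and 1.85 to 5.91 CPM in iWAT and was not called (-0.22 ± 0.34, adjusted p = 0.593). Tbx15 was lower in BAT (-1.69 ± 0.30).

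White-selective genes kept their distance in the other direction. Of 20 tested, 17 were lower and 1 higher in BAT, with a median of -3.78. Leptin (Lep), the satiety hormone, had 11.5, 9.79, 5.21, 8.7 and 3.4 CPM in BAT and 685, 455, 429, 255 and 172 CPM in iWAT (-5.69 ± 0.49, adjusted p = 5.93e-06). Resistin (Retn) had 46.3 to 58.1 CPM in BAT and 741 to 1117 CPM in iWAT (-4.10 ± 0.15, adjusted p = 5.05e-08). The amino acid transporter Slc7a10 averaged 15.04 ± 3.77 CPM in BAT and 280 ± 33.3 CPM in iWAT (-4.22 ± 0.20 SE). None of these 3 genes overlapped between the depots, and BAT lay below iWAT without overlap for 23.7% of all genes tested. A lack of overlap was required for naming Lep, and naming list members by smallest p favours it too. Unlike the thermogenic genes, these 3 varied little among iWAT libraries, except Lep. Nnat, an imprinted gene, spread from 1.3 to 12.3 CPM in BAT and from 87.2 to 857 CPM in iWAT (-6.40 ± 1.01). The exception was Npr3, the clearance receptor for natriuretic peptides, which averaged 846 ± 179 CPM in BAT and 169 ± 126 CPM in iWAT (2.33 ± 0.61 SE, adjusted p = 7.08e-03).

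The largest and best-measured lower genes included abundant products of adipocytes and stroma. Car3, a carbonic anhydrase abundant in white fat, averaged 544 ± 123 CPM in BAT and 15017 ± 2248 CPM in iWAT (-4.79 ± 0.24 SE). Gsn, the actin-severing protein gelsolin, averaged 396 ± 84.3 CPM in BAT and 7453 ± 1620 CPM in iWAT (-4.23 ± 0.23 SE), and transferrin (Trf) averaged 105 ± 20.4 CPM in BAT and 1878 ± 337 CPM in iWAT (-4.16 ± 0.20 SE). Cyp2e1, a cytochrome P450, averaged 124 ± 52.1 CPM in BAT and 3193 ± 727 CPM in iWAT (-4.68 ± 0.33 SE). Apcdd1, an inhibitor of Wnt signalling, had 2.35 to 4.71 CPM in BAT and 145 to 282 CPM in iWAT (-5.76 ± 0.26), and the secreted matrix-associated protein Ccdc80 had 9.33 to 22.8 CPM in BAT and 344 to 1001 CPM in iWAT (-5.59 ± 0.46).

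Hox genes split along their clusters. Of 39 listed, 26 were tested, 7 were higher and 16 lower in BAT. The 3 genes with the largest differences of all lower genes named were Hoxa10, Hoxc10 and Hoxc9. Hoxa10 had 0 counts in all BAT libraries and 4053 counts in the iWAT libraries, which puts BAT at least 973-fold lower when a floor of 3 counts over the group is used. Hoxc10 had 1 count in BAT and 8829 in iWAT, and Hoxc9 6 in BAT and 4717 in iWAT. At the front of the clusters the order turned. Hoxa5 had 46.6, 35.5, 34.3, 45.9 and 42.9 CPM in BAT and 4.37, 3.57, 3.7, 4.95 and 4.97 CPM in iWAT (3.25 ± 0.14, adjusted p = 1.58e-07), Hoxa4 was higher by 2.38 ± 0.15, and Hoxc4 averaged 25.9 CPM in BAT and 4.52 CPM in iWAT (2.52, adjusted p = 9.09e-07). Hoxa7 and Hoxc6 lay between, at -0.97 and -0.52, and Hoxc8 was lower, with 3.79 to 8.88 CPM in BAT and 44 to 63.6 CPM in iWAT (-3.20 ± 0.24). In the B and D clusters the called genes were lower in BAT apart from Hoxb2 (0.50, adjusted p = 0.0106). The Hox differences at 30 °C had the same sign for the 7 genes named above with a difference over 2-fold, for example 3.39 for Hoxa5 and -9.44 for Hoxc9.

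**Figure D3:**
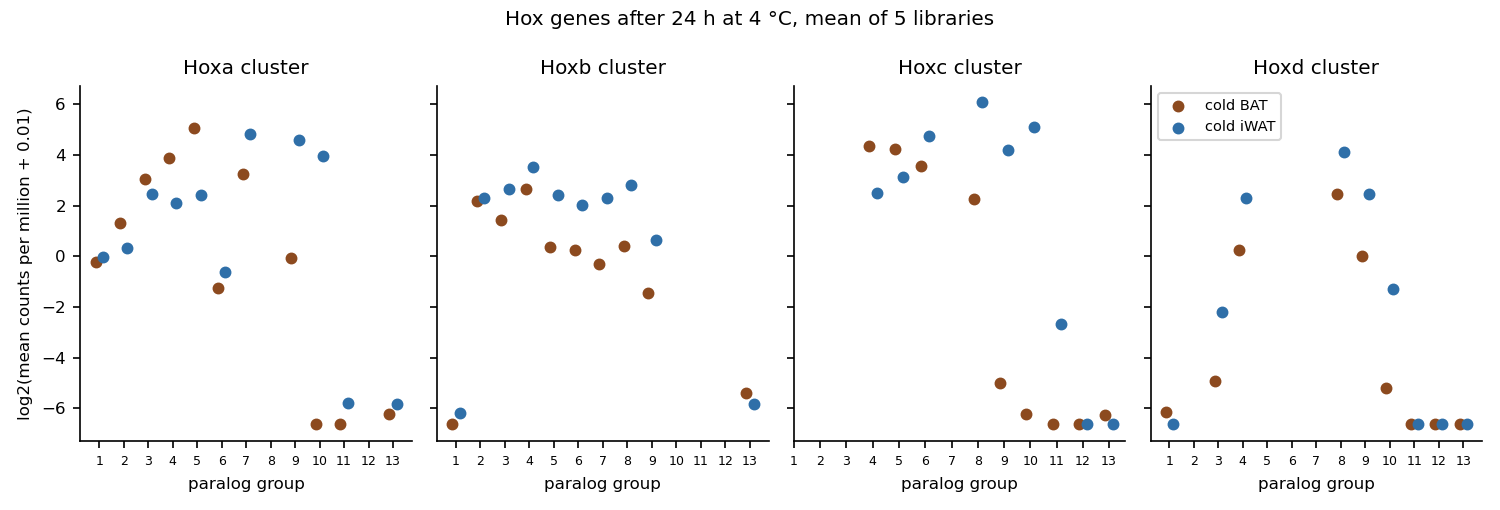
Mean level of Hox genes by paralog group in the 4 clusters, as log2 of mean CPM plus 0.01, in cold BAT (first in the legend) and cold iWAT; points at the bottom of the axis are 0 counts. Groups 4 and 5 of clusters A and C are higher in BAT, and groups 8 to 10 are higher in iWAT, where BAT falls to 0 or near 0 for Hoxa10, Hoxc9 and Hoxc10.

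Beige-associated genes were split: of 15 tested, 5 were higher and 7 lower in BAT, against 30.1% and 34.0% over all genes, with a median of -1.17. Lower in BAT were Tmem26, a surface marker of beige cells, with 0 to 0.0926 CPM in BAT and 0.51 to 3.13 CPM in iWAT (-5.16 ± 0.73), Tbx1 (-3.50 ± 0.78), Klhl13 (-3.70 ± 0.23) and Shox2 (-2.49 ± 0.30). Higher in BAT were P2rx5, an ATP-gated channel (2.64 ± 0.29), and the proton-coupled amino acid transporter Slc36a2, with 397 to 534 CPM in BAT and 166 to 262 CPM in iWAT (1.14 ± 0.15). Cited1 was at the edge of the threshold (-1.17 ± 0.47, adjusted p = 0.0487) and lost its call when single libraries were left out. Tmem26, Tbx1 and Cited1 were at a few CPM or less in every library, and Tbx1 was highest in iWAT replicates 4 and 5, the libraries with the most B-lymphocyte marker RNA, whose part in the result was not tested.

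The machinery of oxidation was higher in BAT across nearly every list. Of 81 nuclear genes of oxidative phosphorylation, 77 were higher and 3 lower (median 1.61); of 18 tricarboxylic acid cycle genes, 17 were higher and 1 lower (median 1.85); of 27 fatty acid oxidation genes, 24 were higher and 1 lower (median 1.34). All 13 mitochondrially encoded protein genes were higher (median 1.48), as were 11 of 13 coenzyme Q genes, with 1 lower. These medians kept their sign with library totals alone. Cpt1b, the muscle and brown fat form of the carnitine palmitoyltransferase that admits fatty acids to mitochondria, had 1008, 1084, 1143, 1286 and 1261 CPM in BAT and 55, 91.8, 16.3, 27.9 and 99.2 CPM in iWAT (4.32 ± 0.48, adjusted p = 3.01e-05). Acaa2, the last enzyme of the oxidation spiral, averaged 1047 ± 89.9 CPM in BAT and 120 ± 35.6 CPM in iWAT (3.13 ± 0.20 SE), and the trifunctional protein subunits Hadha and Hadhb were higher by 2.49 ± 0.21 and 2.75 ± 0.22. Suclg1 of the citric acid cycle was higher by 2.60 ± 0.19, Ogdh by 2.41 ± 0.21 and Idh3b by 2.04 ± 0.16.

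A smaller set of mitochondrial genes ran against this order. Of the oxidative phosphorylation list, Atp5g1 and Atp5g3, genes of the c subunit of ATP synthase, were lower in BAT at -1.39 and -1.22, and Atpif1, the inhibitor of ATP synthase, was lower at -1.09. The lower member of the tricarboxylic acid cycle list was Pcx, pyruvate carboxylase (-1.23), and that of fatty acid oxidation was Cpt1c (-1.89). Among mitochondrial carriers, 15 of 26 were higher and 6 lower. The dicarboxylate carrier Slc25a10, which serves fatty acid synthesis, averaged 20.5 ± 2.76 CPM in BAT and 272 ± 54.9 CPM in iWAT (-3.73 ± 0.17 SE, adjusted p = 1.75e-07). The coenzyme A carrier Slc25a42 was higher by 3.37 ± 0.18, the NAD carrier Slc25a51 by 2.32 ± 0.17 and the pyrimidine nucleotide carrier Slc25a33 by 2.31 ± 0.18.

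Subunit isoforms of cytochrome oxidase also differed in their balance. Per kilobase of exon, Cox7a1 made up 60.7% ± 1.16 of the Cox7a1 plus Cox7a2 level in BAT and 13.4% ± 6.58 in iWAT (SD, n = 5 each). Cox8b made up 52.9% ± 0.908 of the Cox8b plus Cox8a level in BAT and 19.9% ± 3.80 in iWAT. Muscle also uses the Cox7a1 and Cox8b forms. BAT replicate 4, with 41.4 CPM of muscle markers, had 244 CPM of Cox7a1, and the other BAT libraries, with 776 to 4127 CPM of muscle markers, had 228 to 281 CPM; the part of muscle RNA in this balance was not tested. Cox7a2, the form found in most tissues, was itself higher in BAT (1.57 ± 0.15). The mitochondrial ribosomal RNAs were the most abundant genes more than 8-fold higher: mt-Rnr2 averaged 57632 ± 15083 CPM in BAT and 3891 ± 2547 CPM in iWAT (3.89 ± 0.46 SE), and mt-Rnr1 15682 ± 1494 CPM in BAT and 635 ± 334 CPM in iWAT (4.63 ± 0.37 SE).

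Genes that build and shape mitochondria were higher for 16 of 20 and lower for 0, with a median of 1.13. The transcription factor Tfam, which packages mitochondrial DNA, averaged 62.7 ± 1.80 CPM in BAT and 23.4 ± 3.14 CPM in iWAT (1.43 ± 0.09 SE). Polrmt, the mitochondrial RNA polymerase, was higher by 1.42 ± 0.09, and Mfn1, which fuses outer membranes, by 1.496 ± 0.09. Creatine and calcium cycling genes, proposed as further routes of heat production, were higher for 7 of 16 and lower for 3, against 30.1% and 34.0% over all genes. Creatine kinase B (Ckb) had 722, 978, 1066, 1093 and 1270 CPM in BAT and 18.6, 27.8, 41.1, 30.4 and 37.3 CPM in iWAT (5.05 ± 0.26, adjusted p = 2.43e-07). Alpl, a phosphatase able to hydrolyse phosphocreatine, was higher by 3.91 ± 0.29 and the calcium pump Atp2a2 by 2.00 ± 0.13, while Gatm and Gamt, the enzymes of creatine synthesis, were lower at -1.90 and -2.30. Ucp3 averaged 163 ± 34.5 CPM in BAT and 53.9 ± 17.3 CPM in iWAT (1.60 ± 0.23 SE), and Ucp2 was not called (-0.46 ± 0.23, adjusted p = 0.0999). Ucp2 was called lower in BAT with upper-quartile scaling (-0.60, adjusted p = 0.0399), with library totals alone (-1.07, adjusted p = 0.00299) and without iWAT replicate 1 (-0.57, adjusted p = 0.0261).

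Genes of glycolysis and glucose uptake were higher in BAT for 16 of 26 and lower for 4, with a median of 1.23. Phosphofructokinase subunits Pfkl and Pfkp were higher by 3.18 ± 0.21 and 2.26 ± 0.12, hexokinase Hk1 by 1.53 ± 0.11 and pyruvate kinase Pkm by 2.52 ± 0.17. The insulin-regulated transporter Slc2a4 averaged 594 ± 184 CPM in BAT and 296 ± 75.7 CPM in iWAT (1.004 ± 0.25 SE, adjusted p = 4.55e-03), a call lost with library totals alone (0.38, adjusted p = 0.112). Pdk4, the kinase that turns off pyruvate dehydrogenase, was higher as well, with 1271 to 2416 CPM in BAT and 59.1 to 362 CPM in iWAT (2.96 ± 0.42). Glycerol handling was marked by Gk, glycerol kinase, which recaptures the glycerol of lipolysis: 1239, 1211, 1379, 1447 and 1192 CPM in BAT and 63.6, 92.2, 19, 23.6 and 102 CPM in iWAT (4.43 ± 0.49, adjusted p = 2.69e-05). Gpd1 and Gpd2, the cytosolic and mitochondrial glycerol phosphate dehydrogenases of the glycerol phosphate shuttle, were higher by 2.58 ± 0.27 and 3.12 ± 0.27.

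Lipid synthesis and storage showed no common direction. Of 19 de novo lipogenesis genes, 7 were higher and 5 lower (median 0.08, -0.54 with library totals alone); fatty acid synthase (Fasn) averaged 3212 ± 1695 CPM in BAT and 4363 ± 1898 CPM in iWAT (-0.44 ± 0.42 SE, adjusted p = 0.376) and Scd1 7623 ± 1071 CPM in BAT and 8182 ± 2770 CPM in iWAT (-0.10 ± 0.25 SE, adjusted p = 0.736). Neither gene was called, but with library totals alone both were called lower in BAT (Fasn -1.09, adjusted p = 0.0273; Scd1 -0.70, adjusted p = 0.0177). The elongases separated: Elovl6 averaged 1301 ± 408 CPM in BAT and 111 ± 78.6 CPM in iWAT (3.55 ± 0.48 SE), Elovl4 was higher by 4.82 ± 0.33 and Elovl1 lower (-1.27 ± 0.14). Fads1, a desaturase of polyunsaturated fatty acids, was lower (-2.10 ± 0.11). Among 15 enzymes and regulators of triglyceride synthesis, 9 were higher and 3 lower, with a median of 0.52 that was -0.09 with library totals alone; Agpat3 was higher by 1.89 ± 0.16 and Mogat1 lower at -2.51 ± 0.23.

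Lipolysis and lipid droplet genes were evenly split, 6 higher and 7 lower of 20 (median 0.01, -0.60 with library totals alone). Droplet proteins differed by type: Plin2, Plin3 and Plin5 were higher by 2.40 ± 0.25, 1.79 ± 0.16 and 3.29 ± 0.38, while Cidec, the droplet fusion protein of large white adipocytes, averaged 674 ± 72.8 CPM in BAT and 2998 ± 462 CPM in iWAT (-2.15 ± 0.15 SE). Pnpla2, the lipase that takes the first fatty acid from triglyceride, had 1554, 1900, 1946, 2510 and 1928 CPM in BAT and 3948, 3877, 2483, 2888 and 3360 CPM in iWAT (-0.75 ± 0.18, adjusted p = 4.03e-03). Lipoprotein lipase (Lpl), which frees fatty acids from circulating lipoproteins, had 12334, 15641, 16613, 16447 and 17205 CPM in BAT and 6770, 9525, 6345, 6992 and 9415 CPM in iWAT (1.003 ± 0.19, adjusted p = 8.72e-04). Its inhibitor Angptl4 had 106 to 171 CPM in BAT and 81.5 to 448 CPM in iWAT, which overlapped (-1.12 ± 0.37, adjusted p = 0.0222), and its call was lost with limma-voom (adjusted p = 0.0537). Slc27a1, a fatty acid transporter, was lower with 125 to 149 CPM in BAT and 1008 to 1697 CPM in iWAT (-3.42 ± 0.16), the reverse of Slc27a2.

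Ketone and monocarboxylate genes were 4 higher and 4 lower of 10 (median 0.06, -0.54 with library totals alone). Bdh1, which interconverts the 2 ketone bodies, had 37.6, 27, 48, 102 and 110 CPM in BAT and 0.348, 0.387, 0.162, 1.78 and 1.09 CPM in iWAT (6.42 ± 0.72, adjusted p = 3.11e-05). The transporter Slc16a1 was higher by 3.42 ± 0.25 and its relative Slc16a7 lower at -3.60 ± 0.16. Branched-chain amino acid breakdown had 9 of 19 genes higher and 2 lower, with a median of 0.40 that was -0.22 with library totals alone. Acyl-CoA thioesterases had 8 of 14 higher and 1 lower, with a median of 1.53.

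The adrenergic pathway differed in its components more than in its sum, with 19 of 40 genes higher and 13 lower and a median of 0.50 that was -0.11 with library totals alone. The β1-adrenergic receptor Adrb1 had 33.8, 26.7, 25.2, 26.9 and 29.7 CPM in BAT and 5.05, 5.35, 1.84, 2.05 and 2.34 CPM in iWAT (3.10 ± 0.32, adjusted p = 1.88e-05). The β3-adrenergic receptor Adrb3 had 51.7, 78.1, 112, 64.2 and 51.2 CPM in BAT and 216, 213, 134, 139 and 88.7 CPM in iWAT (-1.14 ± 0.29, adjusted p = 5.57e-03). The Adrb1 groups did not overlap, whereas BAT replicate 3 exceeded iWAT replicate 5 for Adrb3. Per kilobase of exon, Adrb1 made up 29.9% ± 8.54 of the Adrb1 plus Adrb3 level in BAT and 2.02% ± 0.572 in iWAT (SD, n = 5 each). Downstream, the stimulatory G protein gene Gnas averaged 3303 ± 325 CPM in BAT and 612 ± 80.7 CPM in iWAT (2.43 ± 0.15 SE).

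Adenylyl cyclases and phosphodiesterases differed gene by gene. Adcy3 was higher by 3.99 ± 0.34, whereas Adcy5 had 5.92 to 7.48 CPM in BAT and 83.2 to 232 CPM in iWAT (-4.62 ± 0.33, adjusted p = 1.79e-06). The phosphodiesterases Pde4a and Pde7b, which degrade cyclic AMP, were higher by 3.21 ± 0.23 and 3.07 ± 0.21, and Pde3b, the enzyme through which insulin restrains lipolysis, was lower at -0.82 ± 0.21. The inhibitory receptor Adra2a was lower at -2.88 ± 0.42. Adcyap1r1, the receptor for the peptide PACAP, averaged 5.20 ± 1.29 CPM in BAT and 51.3 ± 11.5 CPM in iWAT (-3.31 ± 0.21 SE), and the neuropeptide Y receptor Npy1r was lower at -2.01 ± 0.24. Clstn3 and S100b, linked in mice to the sympathetic supply of brown fat, were higher by 2.13 ± 0.20 and 5.02 ± 0.37. Neurotrophin and innervation genes as a list did not share this direction. Of 18 tested, 6 were higher and 7 lower in BAT (median -0.31), against 30.1% and 34.0% over all genes. S100b is also a Schwann cell marker, and of the 7 such markers tested 1 was higher and 6 were lower.

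Secreted factors lay on both sides, with 13 of 36 higher and 17 lower in BAT, against 30.1% and 34.0% over all genes. Adiponectin (Adipoq) had 146, 250, 246, 331 and 294 CPM in BAT and 1753, 2152, 1782, 1308 and 1705 CPM in iWAT (-2.78 ± 0.23, adjusted p = 3.33e-06), adipsin (Cfd) averaged 769 ± 203 CPM in BAT and 8662 ± 2371 CPM in iWAT (-3.49 ± 0.26 SE), and Igfbp4 47.1 ± 9.39 CPM in BAT and 774 ± 66.8 CPM in iWAT (-4.04 ± 0.16 SE). Besides Bmp8b and Kng2, Fgf9 was higher in BAT, at 8.87 to 20.4 CPM against 0.0766 to 0.65 CPM in iWAT (5.86 ± 0.56). Fgf21 was higher (4.58 ± 1.06, adjusted p = 3.51e-03), but BAT replicate 1 alone had 21.1 CPM against 0.872 to 3.2 CPM in the other BAT libraries. Angiogenic genes had 11 of 21 higher and 3 lower, with a median of 0.42 that was -0.19 with library totals alone; the VEGF receptor Kdr averaged 287 ± 31.6 CPM in BAT and 123 ± 25.9 CPM in iWAT (1.23 ± 0.15 SE), and Nrp2 was higher by 2.43 ± 0.16. Summed endothelial markers were 863 to 1124 CPM in BAT and 646 to 773 CPM in iWAT. Of the 10 markers, 4 were higher and 1 lower in BAT, with a median of 0.10 whose sign depends on the scaling.

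Matrix and stromal genes formed a large group on the white side. Of 26 collagens, 19 were lower and 3 higher in BAT (median -2.51), and of 28 matrix genes, 20 were lower and 0 higher (median -1.98). Col3a1 had 78.5, 149, 115, 46 and 41 CPM in BAT and 800, 1403, 3264, 480 and 401 CPM in iWAT (-3.89 ± 0.67, adjusted p = 5.40e-04). Thbs2, thrombospondin 2, averaged 2.58 ± 0.718 CPM in BAT and 95.7 ± 67.3 CPM in iWAT (-5.21 ± 0.57 SE), and the protease inhibitor Timp2 was lower at -3.67 ± 0.48. The groups did not overlap for any of these 3, and BAT lay below iWAT without overlap for 23.7% of all genes tested. For Col3a1, iWAT replicate 3 stood well above the other iWAT libraries. The exceptions among collagens were Col27a1, with 62.7 to 100 CPM in BAT and 6.81 to 20.2 CPM in iWAT (2.80 ± 0.28), Col8a1 (1.27) and Col4a2 (0.73). Summed fibroblast and preadipocyte markers were 220 to 476 CPM in BAT and 1023 to 6505 CPM in iWAT, with 8 of 10 members lower in BAT, and their part in the matrix result was not tested.

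Immune genes were lower in BAT, but with wide spread between libraries. Of 11 MHC class II genes, 10 were lower; of 21 interferon response genes, 15 were lower; of 23 chemokines and cytokines, 16 were lower and 1 higher. H2-Ob had 0.285, 1.69, 0.39, 0.291 and 0.358 CPM in BAT and 0.396, 6.4, 1.63, 46 and 16.5 CPM in iWAT (-4.56 ± 1.19, adjusted p = 6.79e-03), so the groups overlapped and iWAT replicate 4 carried most of the signal. Ccl21a, a chemokine of lymphoid stroma, had 0.218 to 1.85 CPM in BAT and 0.174, 16.8, 1.97, 410 and 133 CPM in iWAT (-6.66 ± 1.75, adjusted p = 6.89e-03). With limma-voom both calls were lost (H2-Ob adjusted p = 0.138, Ccl21a adjusted p = 0.343), as they were without iWAT replicates 4 and 5 (edgeR, H2-Ob -2.22, adjusted p = 0.0584; Ccl21a -2.50, adjusted p = 0.0814). Il7 was steadier, with 0.0694 to 0.184 CPM in BAT and 1.7 to 5.72 CPM in iWAT (-4.63 ± 0.42). Without iWAT replicates 4 and 5, the libraries over 200 CPM of B-lymphocyte markers, edgeR called 0 of the 11 MHC class II genes (7 lower at an unadjusted p under 0.05, median -2.06), while 15 interferon genes and 14 chemokine genes were still lower. Without the 5 libraries over 1000 CPM of muscle markers, 3 interferon and 6 chemokine genes were called lower by edgeR and 0 MHC class II genes, 0 of them also at an unadjusted p under 0.05 (median -1.70), from 2 BAT and 3 iWAT libraries.

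Other cell type markers moved with these groups. T-lymphocyte markers (10 of 10 lower) summed to 2.09 to 20.05 CPM in BAT and 4.34 to 269 CPM in iWAT, and macrophage markers (8 of 9 lower) to 65.3 to 369 CPM in BAT and 429 to 1906 CPM in iWAT. Lyz2, an abundant macrophage gene, had 41.2, 158, 38.2, 26.4 and 21.5 CPM in BAT and 141, 302, 794, 322 and 283 CPM in iWAT (-2.69 ± 0.64, adjusted p = 4.14e-03). Mast cell markers (5 of 5 tested lower) summed to 3.20 to 5.26 CPM in BAT and 15.1 to 39.2 CPM in iWAT. In the other direction, erythroid markers (5 of 6 higher) summed to 1060 to 2600 CPM in BAT and 464 to 908 CPM in iWAT, and pericyte and smooth muscle markers (5 of 8 higher, median 0.50, -0.12 with library totals alone) to 523 to 700 CPM in BAT and 259 to 343 CPM in iWAT. The part of these cell types in the immune and matrix results was not tested.

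**Figure D4:**
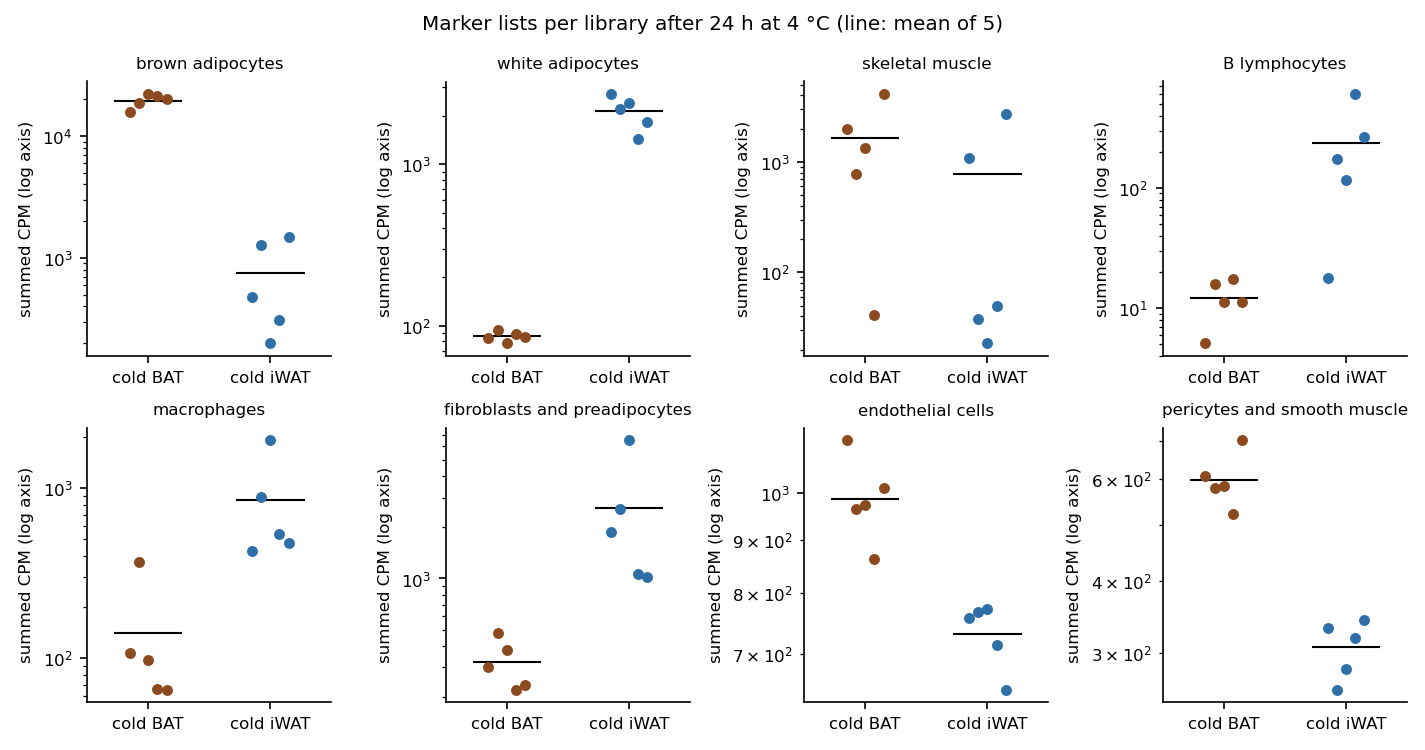
Summed level of 8 cell type marker lists in each cold library, in CPM on a log axis, BAT left of iWAT; each point is a library. Brown and white adipocyte markers are separated without overlap, muscle markers spread over both depots up to 4127 in BAT and 2731 in iWAT, and lymphocyte markers rise to 605 in iWAT.

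The depot difference was then set beside the one at 30 °C, which shares no library with it. At 30 °C, 9808 of 16404 tested genes were called (59.8%), 29.2% higher and 30.6% lower in BAT. Differences over 2-fold were called there for 11.8% higher and 18.2% lower, differences over 8-fold for 1.37% higher and 5.46% lower, and the groups did not overlap for 23.4% with BAT above and 23.7% with BAT below. Over 15386 genes tested at both temperatures the log2 depot differences correlated with Pearson's r of 0.81 and a Spearman correlation of 0.73, across genes, which are not independent. Of the 298 genes over 8-fold higher in cold BAT, 225 were tested at 30 °C, 183 were called higher there and 2 lower; 114 were over 8-fold higher at both temperatures, 38.3% of the cold list and 50.7% of the list at 30 °C. Of the 758 genes over 8-fold lower, 738 were tested at 30 °C, 695 were called lower there and 3 higher, and 467 were over 8-fold lower at both, 61.6% of the cold list and 52.1% of the list at 30 °C.

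The change of the depot difference was tested directly as an interaction over the 20 libraries of both depots and temperatures: 4741 of 17510 genes were called (27.1%), 11.7% with a more positive and 15.4% with a more negative difference in the cold. Changes over 2-fold made up 4.17% of the genes tested in the positive and 8.07% in the negative direction, and changes over 8-fold 0.697% and 0.811%. Of the 4503 called and tested at both temperatures, 1777 had a wider difference in the same direction in the cold, 703 a narrower one and 2023 a difference of opposite sign. The Ucp1 difference was narrower in the cold, 5.09 against 8.70 at 30 °C (interaction -3.61 ± 0.93, adjusted p = 7.2e-03). At 30 °C Ucp1 had 534, 1193, 963, 1008 and 512 CPM in BAT and 6.09, 1.23, 1.35, 0.882 and 0.548 CPM in iWAT. With all 40 libraries on 1 scale, Ucp1 averaged 14874 ± 1656 CPM in cold BAT and 427 ± 397 CPM in cold iWAT, against 802 ± 291 CPM in thermoneutral BAT and 1.87 ± 2.09 CPM in thermoneutral iWAT (SD, n = 5 each). Thus cold iWAT, above its own depot at 30 °C, had a mean under that of thermoneutral BAT, with wide spread. The Cpt1b difference was also narrower (4.32 in the cold, 6.23 at 30 °C, interaction -1.90 ± 0.54, adjusted p = 0.014), a call lost with limma-voom, and so was that of Cox8b (3.07 in the cold, 4.82 at 30 °C, interaction -1.73 ± 0.34).

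Narrowing was common in the mitochondrial lists. The interaction was called for 32 of 81 oxidative phosphorylation genes, 11 of 18 tricarboxylic acid cycle genes and 9 of 13 mitochondrially encoded protein genes, all with a more negative depot difference in the cold, and for 15 negative and 1 positive of 27 fatty acid oxidation genes. Over all genes tested in the interaction, 15.4% were called negative and 11.7% positive. The median interactions of the 4 lists were -0.50, -0.61, -1.12 and -0.75. Their size depends on the scaling: the median over all genes was -0.08 as scaled and 0.10 with library totals alone, where these lists were not counted. Medians at 30 °C were 2.10, 2.54, 2.6997 and 2.00 for these 4 lists. White-selective genes had a median of -3.20 at 30 °C. For Retn, Slc7a10, Hoxc8, Zic1 and Kng2 no change was called, with interactions of -0.09 ± 0.38, 0.59 ± 0.47, -0.13 ± 0.53, 1.07 ± 1.04 and 0.30 ± 0.57.

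Other genes parted more widely in the cold. Ckb differed by 5.05 in the cold and was not called at 30 °C, with 23 to 50.7 CPM in BAT and 23.3 to 34.8 CPM in iWAT (0.13, interaction 4.93 ± 0.32, adjusted p = 5.3e-08). Pde7b (3.07 in the cold, 0.08 at 30 °C, interaction 3.002 ± 0.25) and Elovl4 (4.82 in the cold, 0.07 at 30 °C, interaction 4.78 ± 0.64) showed the same pattern. Gmpr (7.91 in the cold, 3.61 at 30 °C, interaction 4.32 ± 0.83) and Gk (4.43 in the cold, 2.30 at 30 °C, interaction 2.15 ± 0.47) were apart at both temperatures and more so in the cold. On the white side, the leptin (Lep) difference was -5.69 in the cold and -1.95 at 30 °C (interaction -3.71 ± 0.63, adjusted p = 2.6e-04). At 30 °C Lep had 46.5, 63.6, 120, 115 and 55.3 CPM in BAT and 135, 330, 438, 483 and 164 CPM in iWAT. Wider in the cold as well were Adipoq (interaction -1.93 ± 0.28), Slc27a1 (-2.53 ± 0.19), Car3 (-3.42 ± 0.25) and the niacin and ketone body receptor Hcar2 (-3.87 ± 0.45).

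For some genes the depots changed places. Lpl was higher in BAT in the cold, as given above, and lower at 30 °C, with 2722 to 3274 CPM in BAT and 4799 to 8878 CPM in iWAT (-1.14, interaction 2.16 ± 0.25, adjusted p = 5.6e-06). Pnpla2 was lower in BAT in the cold and higher at 30 °C, with 2528 to 3527 CPM in BAT and 1096 to 1890 CPM in iWAT (1.29, interaction -2.03 ± 0.25). Bdh1 was higher in BAT in the cold and lower at 30 °C, with 0.217 to 0.602 CPM in BAT and 0.711 to 4.47 CPM in iWAT (-2.31, interaction 8.73 ± 0.92). The 2 lipases, Lpl on circulating lipid and Pnpla2 on stored lipid, thus changed order in opposite directions, although the cold call of Pnpla2 was lost without the 5 libraries over 1000 CPM of muscle markers (-0.45, adjusted p = 0.283). Mfsd2a, a transporter of lysophospholipids, had a difference of 4.31 in the cold and -1.69 at 30 °C (interaction 6.02 ± 0.97), and Angptl4 one of -1.12 in the cold and 1.55 at 30 °C (interaction -2.66 ± 0.50). Such reversals, called in both temperatures and in the interaction, numbered 495.

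**Figure D5:**
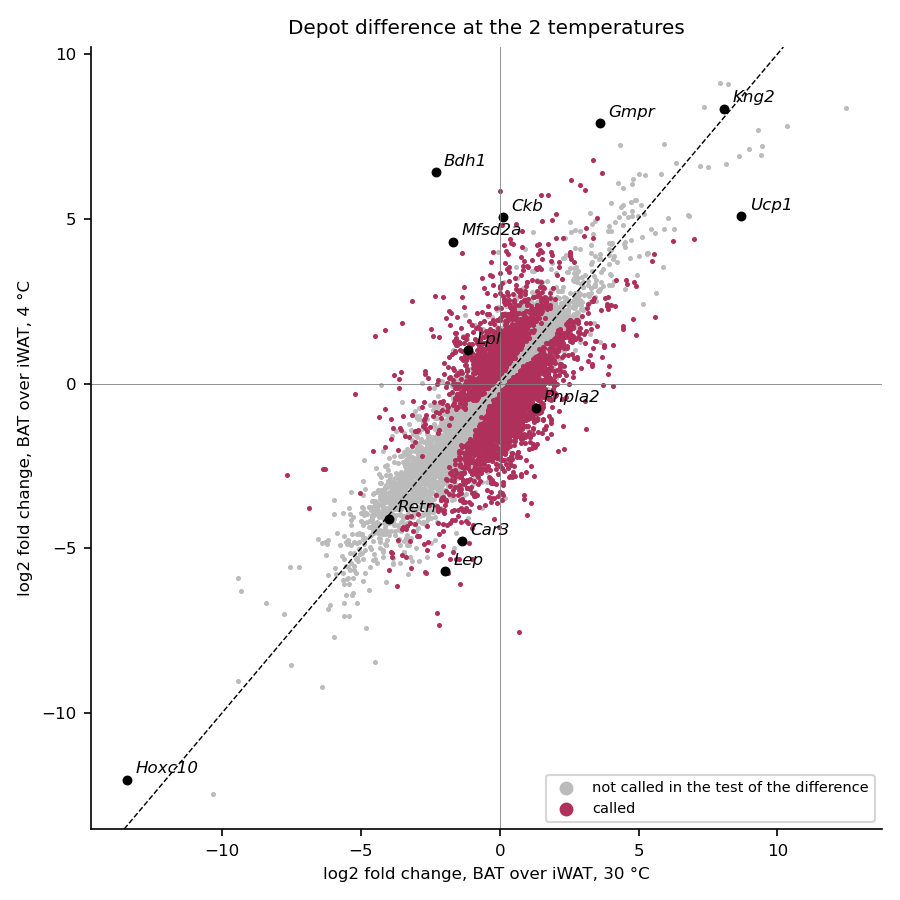
Log2 depot difference (BAT over iWAT) at 4 °C against that at 30 °C for the 15386 genes tested at both temperatures; each point is a gene, and genes called in the interaction are coloured. Most genes lie along the diagonal, Ucp1 lies below it on the right, and Ckb, Bdh1 and Lpl lie above it.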

How the data were processed

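RNA from whole BAT, iWAT, epididymal white fat and liver of mice kept at 4 °C or 30 °C was sequenced in 40 libraries; the 20 BAT and iWAT libraries were used here. The authors deposited estimated counts (expected counts, whole numbers as deposited) per gene symbol. The submitters' processing notes name FastQC, STAR 2.7.8a, RSEM 1.3.0, DESeq and the builds GRCm39 and GRCm38; their roles, the annotation and the strand setting of the counting are not given in the sources used here. Of the 260093 lines of the table, repeated lines of a symbol were reduced to 1 value per gene, leaving 53863 symbols, 78 of which combine more than 1 gene and are uncertain; 37176 had a count in any library.

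Differences were tested with edgeR 4.0.16 (R 4.3.3): filterByExpr (minimum count 10, total 15), TMM scaling and the robust quasi-likelihood test with its default prior count. Benjamini-Hochberg adjustment ran over all genes tested, with a threshold of 0.05. A prior count of 2 was used only for log levels, as in the correlations between libraries. The cold and 30 °C comparisons were fitted separately on their own 10 libraries, and the interaction on all 20, with 4 group means. CPM values were computed on the TMM-scaled library size, separately at each temperature, so levels are compared within a temperature unless a common scale is stated; errors on log2 differences are standard errors. Counts of 0 were bounded by a floor of 3 counts over the group, which covers counting error only. The fit was also run on simulated data in which a small part of the genes was changed, unlike the 64.1% called in the cold. That run cannot test the scaling, and its outcome is not used here. Alternatives were DESeq2 1.42.0, limma-voom (limma 3.58.1), other scalings, other filters, a replicate block, a fit over all groups, and leaving libraries out.

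Genes were named as follows: the 12 largest called differences in each direction with at least 10 CPM in the higher depot and no overlap, up to 4 members of smallest p per list, the most abundant marker of each cell type, genes of interest, the 6 most positive and 6 most negative interactions, and the 6 most abundant genes over 8-fold in each direction. Other list members named were chosen after their values were seen. The comparison and the gene lists were chosen with earlier results of these data known. Marker lists were summed without a test, and no set test was run. Promoters came from RefSeq (GRCm38.p6), and no coordinates of the count table were used. Some genes are not reported here.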

Additional observations from a re-analysis of the deposited data

Results flagged for a closer look

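Among 78 of the genes named, each group of 5 cold libraries was searched for a library far from the others by Dixon's criterion, and 15 of 156 groups met it. Chance meets it in about 1 of 20 groups of normally distributed values. That rate does not carry over to CPM near 0 or to genes measured in the same libraries. Replicate 5 of iWAT was the high library for genes of the brown side: Gmpr with 37.5 CPM (3.13 to 6.03 in the other iWAT libraries), Sgk2 with 2.65 (0.184 to 0.634), Car14 with 1.01 (0.0613 to 0.317), Arhgdig with 0.301 (0.0153 to 0.0485), Fam131c with 0.253 (0 to 0.0633), and Bmp8b and Tacr2, both with 0.222 CPM (up to 0.0619 and up to 0.0309). It was also high for Cfd, at 12795 CPM (7055 to 8488), and low for the noncoding RNA Snhg11, at 5.56 CPM (13.2 to 16.3). The same library had the most thermogenic RNA and the most skeletal muscle marker RNA (2731 CPM) of its group, and 264 CPM of B-lymphocyte markers against 605 CPM in iWAT replicate 4; the part of these in its values was not tested.

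Replicate 1 of BAT was high for the liver-secreted proteins Alb, at 2.75 CPM (0.0793 to 0.625), and Hpx, at 59.2 CPM (1.37 to 6.54), and for Fgf21, at 21.1 CPM (0.872 to 3.2). Replicate 5 of BAT held the single Hoxc10 count of its depot, 0.0224 CPM. In iWAT, Lhx8 was high in replicate 1, at 5.91 CPM (1.85 to 2.73), and the collagen gene Col1a1 in replicate 3, at 1686 CPM (97.8 to 444).

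The depot difference in the cold differed from that at 30 °C, by the edgeR interaction test, for 30 of the 78 genes, 10 positive and 20 negative. Over all genes tested the share called was 27.1%, and the 78 include genes named for their large interaction. Values are log2 differences in the cold minus those at 30 °C. Of the genes on the oxidative and brown side in the cold, the interaction was 11.01 for Cpne5, 8.73 for Bdh1, 4.32 for Gmpr, 2.15 for Gk and 1.56 for Ppargc1a. For Cpne5 and Bdh1 it exceeded the cold difference given above, so the fitted depot difference had the opposite sign at 30 °C. Cpne5 was at 0 to 0.352 CPM in cold iWAT. The interaction was -3.61 for Ucp1, -1.93 for Pdk4, -1.90 for Cpt1b and -1.73 for Cox8b. Of the lipid handling genes it was 6.02 for Mfsd2a, 2.16 for Lpl, -2.03 for Pnpla2, -2.53 for Slc27a1 and -2.66 for Angptl4. Among secreted products it was 5.86 for Fgf9, 5.36 for Hpx, -1.0 for Gsn, -1.93 for Adipoq, -2.37 for Ccdc80, -3.71 for Lep and -3.86 for Alb. The Hpx interaction was not called with the replicate block (4.40, adjusted p = 0.079), with limma-voom (4.51, adjusted p = 0.0682) or without cold BAT replicate 1 (3.32, adjusted p = 0.0521), and that of Alb was not called with the block (-3.75, adjusted p = 0.0516) or with limma-voom (-4.04, adjusted p = 0.0965). Other values were 5.15 for the channel subunit Lrrc52, -3.08 for Apcdd1, -3.42 for Car3, -3.87 for Hcar2, -3.89 for Snhg11, -4.24 for the matrix protein Svep1, -4.31 for Acat3, -4.36 for the secretin receptor Sctr and -4.47 for the acyl-CoA synthetase Acsm3. The Lrrc52 interaction was not called by edgeR without thermoneutral iWAT replicate 3 (4.24, adjusted p = 0.131).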

How the results depend on the processing

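The number of calls in the cold stayed within 1.5 times of 10105 under each other tool, scaling, filter and left-out library, for example 10386 with DESeq2 and 9826 with limma-voom; for the interaction these were 5234 and 4585. Scaling moved the direction of the calls. With library totals alone, 2020 genes were higher and 9662 lower in cold BAT (1277 over 8-fold lower). At 30 °C, 1417 were then higher and 11561 lower (131 and 1450 over 8-fold), and 1736 interactions were negative, against 2829 positive. The Calr difference, 0.60 as reported, was then -0.00797 (adjusted p = 0.952). Counts over 8-fold depend partly on the filter for low genes. Without a low-count filter they were 492 higher and 1620 lower in the cold, and 417 and 1748 at 30 °C. With at least 1 CPM in 5 libraries they were 192 and 465 in the cold, 141 and 585 at 30 °C, and 74 positive and 60 negative for the interaction. With all 40 libraries in 1 fit, 1708 were over 8-fold lower in the cold.

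Leaving out each library in turn gave 9514 to 10095 calls in the cold (4534 to 4768 higher, 4965 to 5395 lower; 294 to 367 and 656 to 1181 over 8-fold). At 30 °C it gave 9344 to 9899 calls (4494 to 4805 higher, 4832 to 5094 lower; 222 to 374 and 799 to 1103 over 8-fold), the 374 without iWAT replicate 3. The interaction had 4283 to 4738 calls (1794 to 2275 positive, 2211 to 2684 negative; 116 to 154 and 135 to 177 over 8-fold). Without the 5 libraries with the most muscle marker RNA, chosen after seeing the data, 5792 genes were called and 2500 were lower; the cold calls of Angptl4, Col1a1, Fgf21, Lyz2, Pnpla2 and Tbx1 were among those lost. Calls changed under at least 1 alternative for 34 of 236 named genes in the cold and for 16 of 68 in the interaction; for Fam131c, Car14, Sgk2 and Arhgdig an interaction was called without cold iWAT replicate 5, among other alternatives. The cause was not tested.

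With the replicate number as a block there were 9784 calls in the cold, 9837 at 30 °C and 4616 in the interaction. Deviations of same-numbered cold libraries correlated at 0.21, 0.17, -0.06, 0.10 and 0.41, and those at 30 °C at 0.08, 0.09, 0.55, 0.24 and 0.05; libraries of different number ranged from -0.49 to 0.39 in the cold and from -0.40 to 0.29 at 30 °C. The same-numbered values were mostly positive, but they do not settle whether the numbers pair the depots. The main fit has no block because the labels do not state a pairing. A change of prior count concerned mean log levels of the marker lists, which are not printed here; the sums use none. With 47505182 counts or more in each cold library, depth limits only genes near 0 in 1 depot. Their fitted differences depend on the default prior count of the fit, which was not varied.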

Other observations

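Of 19 clock genes tested, 6 were higher and 7 lower in cold BAT (median log2 difference -0.10), shares near the 30.1% and 34.0% of all genes. The repressor Per3 averaged 3.98 ± 0.719 CPM in BAT and 21.0 ± 4.92 CPM in iWAT (SD, n = 5 each; -2.40 ± 0.19 SE), the receptor Nr1d1 52.2 ± 8.26 CPM in BAT and 127 ± 21.7 CPM in iWAT (-1.28 ± 0.14 SE), and Cry1 28.8 ± 8.39 CPM in BAT and 8.37 ± 1.25 CPM in iWAT (1.78 ± 0.19 SE). The interaction with temperature was called for 11 of the 19, 3 positive and 8 negative, against 11.7% and 15.4% over all genes tested. Per3 differed by 0.38 at 30 °C (interaction -2.77 ± 0.33) and Nr1d1 by 0.35 (interaction -1.61 ± 0.30). The time of day of sampling is not given in the sources used here.

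The oestrogen receptor Esr1 had 7.04 to 16.6 CPM in BAT and 44.6 to 75.2 CPM in iWAT (-2.26 ± 0.23), whereas at 30 °C its difference was 0.38 and not called (interaction -2.62 ± 0.32, adjusted p = 1.0e-05, edgeR). Of the 12 tested genes of glucocorticoid and steroid handling, 2 were higher and 6 lower in cold BAT, against 30.1% and 34.0% over all genes. Iron and haem genes had 12 of 24 higher and 4 lower (median 0.35, -0.25 with library totals alone): the transferrin receptor Tfrc averaged 88.7 ± 13.2 CPM in BAT and 18.9 ± 3.54 CPM in iWAT (2.23 ± 0.15 SE), and ceruloplasmin (Cp) 22.8 ± 5.68 CPM in BAT and 150 ± 49.4 CPM in iWAT (-2.72 ± 0.25 SE). Erythroid marker RNA was also higher in BAT, and its part in the iron and haem counts was not tested.

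Protein folding and stress genes had 11 of 21 higher and 5 lower (median 0.52, -0.06 with library totals alone). The chaperone Hspa5 averaged 563 ± 120 CPM in BAT and 285 ± 44.0 CPM in iWAT (0.98 ± 0.16 SE; 0.39 with library totals alone, where it was not called), while Phgdh, the first enzyme of serine synthesis, averaged 8.69 ± 9.02 CPM in BAT and 114 ± 31.8 CPM in iWAT (-3.70 ± 0.58 SE), with 24.7 CPM in BAT replicate 1 and 3.16 to 6.76 CPM in the other BAT libraries. Of 25 cell cycle genes, 2 were higher and 11 lower (median -0.99). The replication factor Mcm7 had 9.12 to 11.2 CPM in BAT and 19.3 to 22.4 CPM in iWAT (-1.06 ± 0.09), and thymidylate synthase (Tyms) 6.88 to 11.5 CPM in BAT and 2.89 to 4.44 CPM in iWAT (1.28 ± 0.18).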
